A study of Arabidopsis thaliana with 12 samples.

Results

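Transcript levels were compared between Arabidopsis thaliana seeds kept in 5 µM gibberellin for 6 h and seeds kept in water for 6 h. The 4 arrays, RIKEN-LI5A and RIKEN-LI5B (gibberellin) and RIKEN-LI2A and RIKEN-LI2B (water), were chosen by their labels from the 12 arrays of the series. The other 8 hold the same treatments at 3 h and 9 h. All seeds were of the Ler background (Landsberg erecta, a common laboratory strain) and of 1 stock. The sources used here give neither the form of gibberellin nor any allele carried by the stock. Each array gave a MAS5 signal, a background-corrected fluorescence intensity, for 22746 probe sets besides controls. Of these, 15766 were bright enough to be tested (at least 2 of the 12 arrays above a signal of 16), and 8854 of the tested probe sets name exactly 1 gene. The description below is of those 8854, which stand for 8748 genes, of which 1170 probe sets carry a gene symbol and the rest only a locus number.

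Gibberellins are diterpenoid hormones that promote germination. They bind the GID1 receptors, the occupied receptor holds the DELLA repressors, and the F-box protein SLY1 directs the DELLA proteins to degradation. Abscisic acid acts in the opposite direction and keeps seeds dormant. Germination requires the embryo to expand and the covering layers to weaken, and enzymes that loosen or remodel cell walls are long-known gibberellin targets in seeds.

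Whether arrays A and B of a group stand for separate seed batches is not stated in the labels, and the p-values therefore cover only the spread between arrays. With 2 arrays a group, the median standard error of the log2 change at 6 h was 0.317. Log2 signals of arrays A and B correlated at 0.921 in water and 0.935 in gibberellin across probe sets. The highest signal was 3787 on water A and 3500 on gibberellin A, and 7135 on water B and 9008 on gibberellin B, so the A arrays had a lower ceiling in both treatments. The 3'/5' ratio of the actin control probes was 5.38 and 8.76 in water and 6.21 and 6.68 in gibberellin, overlapping between treatments. Seed reserve genes were bright in all 4 arrays: OLEO3, an oil body protein, read 431 and 607 in water and 457 and 751 in gibberellin, and AT3G01570, listed with it, lay at or above percentile 98.8 of each array. BAN, a seed coat gene of proanthocyanidin synthesis, was dim (signals between 1.28 and 11.8) and was not tested. Leaf genes also gave signal, with RCA, the activase of Rubisco, at 480 and 249 in water and 403 and 275 in gibberellin, and LHCB4.1, a light-harvesting protein, at 334 and 252 in water and 241 and 259 in gibberellin. Both overlapped between treatments. No endosperm marker had a probe set of its own, so embryo and endosperm were not told apart, and in whole seeds fewer cells of a type and less RNA per cell cannot be told apart either.

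Higher in gibberellin were 3 expansins and 2 XTH genes of the cell wall, the cysteine proteinase CP1, 4 serine carboxypeptidase-like genes and the asparaginase ASPGB1. Lower were the gibberellin receptor GID1A, its partner in DELLA breakdown SLY1, and 3 genes tied to abscisic acid, XERICO, AT3G25260 and HIS1-3. With limma and Benjamini-Hochberg adjustment over all 15766 probe sets, 104 of the 8854 (1.17%) had an adjusted p under 0.05, 62 higher in gibberellin (0.7%) and 42 lower (0.474%). Over all probe sets 233 (1.48%) passed. The 104 probe sets name 104 different genes. The rises were larger than the falls: their median log2 change was 1.88 against -1.38, 26 of 62 rose at least 4-fold and 9 at least 8-fold, and 6 of 42 fell at least 4-fold. Genes that rose had a median mean signal of 51.7 in water, above the array medians of 28.7 (water A) and 28.9 (water B). Genes that fell had a median of 213.5 in water, and of 72.2 in their dimmer group. A dim gene has little room to fall, so the choice of genes favours this contrast in water. Of the 104, 91 (1.03% of the 8854) changed at least 2-fold, 8 had a mean signal under 16 in their dimmer group, and 33 have a symbol. At an unadjusted p under 0.05 were 931 genes (10.5%). Leaving out an array moved the count of 104: 52 genes passed without water A, 26 without water B, 32 without gibberellin A and 42 without gibberellin B. In these fits the remaining array of the group is assumed to vary like the other groups.

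**Figure D1:**
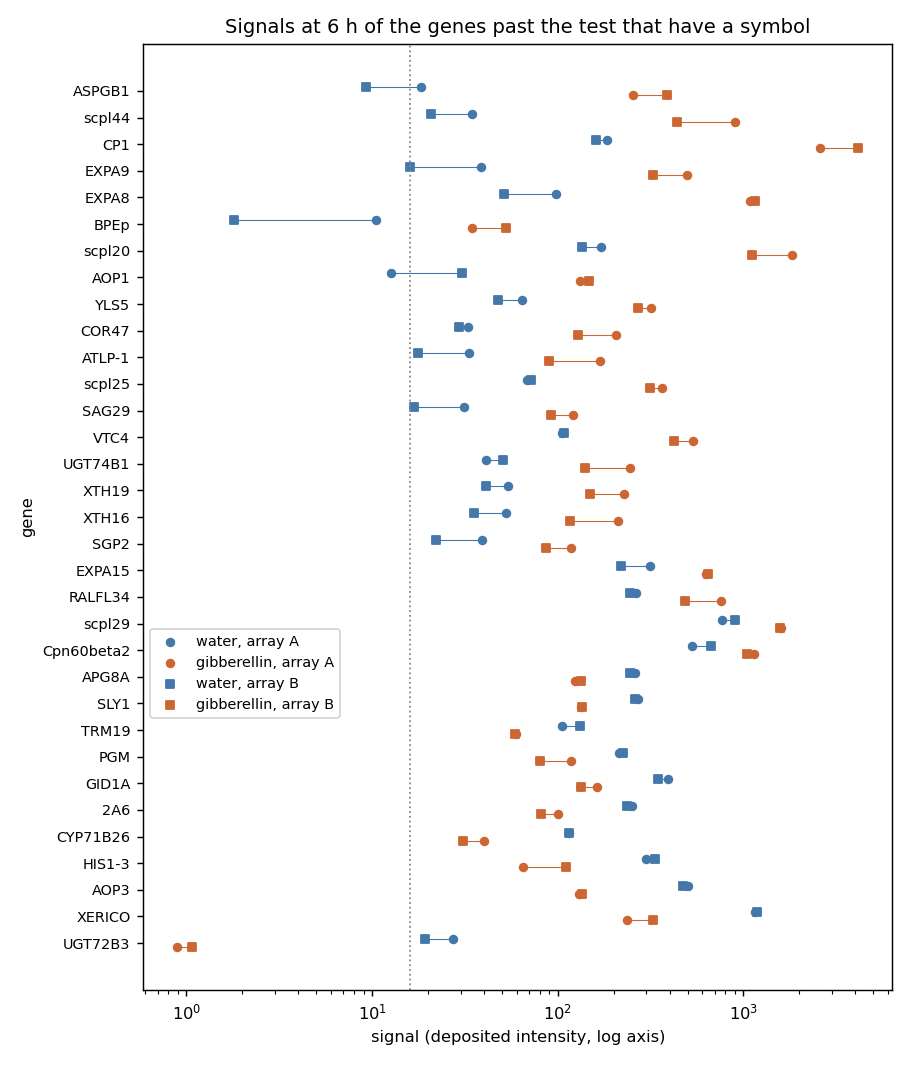
Signals at 6 h (horizontal log axis, deposited intensity) of the 33 genes with a symbol that passed the test, ordered by log2 change. Blue points are water and orange points gibberellin, circles array A and squares array B, a line joins the 2 arrays of a group, and the dotted line is the filter at a signal of 16; in every row the blue and orange points do not overlap.

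Alpha-expansins, proteins that loosen the bonds between wall polymers, were among the largest rises. EXPA8 (AT2G40610) read 97.7 and 51.2 in water and 1091 and 1149 in gibberellin, so both gibberellin arrays stood far above both water arrays. The log2 change of 3.98 ± 0.268 (SE) was 3.48 between the A arrays and 4.49 between the B arrays. EXPA9 (AT5G02260) read 38.4 and 15.9 in water and 494 and 327 in gibberellin. Its groups were as far apart, but its standard error of 0.871 was more than 3 times that of EXPA8 and it kept its call in 4 of the 12 fits made without 1 array. EXPA15 (AT2G03090) was the brightest of the 3 in water, at 315 and 220, and read 632 and 644 in gibberellin (log2 change 1.28 ± 0.220, adjusted p = 0.0156 with limma). Of 10 tested expansins and expansin-like genes 3 rose and 0 fell, against 0.7% and 0.474% of all 8854. Their median log2 change was 0.35 against -0.02 for all 8854. The other 7 did not pass. EXPA4 had a change of 1.80 ± 1.175 at low signals and EXPA20 one of 0.41 ± 0.359.

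Xyloglucan endotransglucosylase/hydrolases (XTH) cut and rejoin the xyloglucan that ties cellulose fibres together. XTH19 (AT4G30290) read 53.8 and 41.2 in water and 229 and 149 in gibberellin, and XTH16 (AT3G23730) read 52.4 and 35.3 in water and 210 and 116 in gibberellin. For both the lowest gibberellin array was more than 2-fold above the highest water array. Of 6 tested XTH genes these 2 rose and 0 fell, where 0.7% of all 8854 rose and 0.474% fell. The median log2 change of the 6 was 1.41. That median counts the dim XTH18 (4.21) and lies between XTH16 (1.86) and XTH33 (0.95), of which XTH33 did not pass. XTH18 read 0.959 and 0.941 in water and 12.9 and 23.8 in gibberellin, near or below the filter in all 4 arrays, and did not pass (adjusted p = 0.358 with limma). EXGT-A3, at signals of 93.9 to 154, had a change of -0.21 ± 0.284. Among other wall lists, 0 of 5 tested GH9 endoglucanases, 0 of 15 TBL genes (wall O-acetylation) and 0 of 5 cellulose synthase-like genes passed. Over all 8854 genes 1.17% passed, so 0 is near that share in lists this short. The log2 changes of the GH9 genes ran from -3.36 to 1.83. The 1 tested pectin methylesterase, ATPMEPCRB, had a log2 change of 2.13 ± 0.607 (adjusted p = 0.136).

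CP1 (AT4G36880), a papain-type cysteine proteinase, was the brightest of the genes that rose. It read 183 and 162 in water and 2597 and 4162 in gibberellin, a log2 change of 4.26 ± 0.274. The highest signal on gibberellin A was 3500, and the change was 3.83 between the A arrays and 4.69 between the B arrays. Serine carboxypeptidase-like genes have products that are peptidases or acyltransferases. Of 10 tested, 4 rose and 0 fell, against 0.7% and 0.474% of all 8854, and the median log2 change of the 10 was 0.71. The dimmest of the 4 in water, scpl44 (AT1G43780), read 34.4 and 20.9 in water and 895 and 440 in gibberellin. The next largest rise in the list, scpl20 (AT4G12910), read 170 and 135 in water and 1838 and 1107 in gibberellin. Both were more than 6-fold apart at their nearest arrays. Smaller rises were seen for scpl25 (AT3G02110), with 68.4 and 72.0 in water and 366 and 313 in gibberellin, and for scpl29 (AT4G30810), with 762 and 906 in water and 1603 and 1575 in gibberellin (log2 change 0.94 ± 0.190, adjusted p = 0.0352 with limma). Under 11 other settings of the fit scpl29 kept its call in 7, scpl44 and scpl20 in 9 each and scpl25 in 10. Another member, scpl48, read 12.3 and 10.7 in water and 131 and 65.6 in gibberellin without passing (log2 change 3.02 ± 0.823, adjusted p = 0.119 with limma). The abundant scpl35, at 1588 and 2040 in water and 1518 and 1782 in gibberellin, overlapped. Of 4 tested subtilases, serine proteases of the wall space, 0 passed, with SBT1.3 nearest at 137 and 159 in water and 498 and 343 in gibberellin (log2 change 1.48 ± 0.349, adjusted p = 0.0687).

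ASPGB1 (AT3G16150), an asparaginase that releases ammonia from asparagine, had the largest log2 change of deposited signals among the 104, but not on the scale of log2(signal + 16), where CP1, scpl44, EXPA8 and AT3G15720 changed more. It read 18.3 and 9.29 in water and 253 and 386 in gibberellin, from about the filter to well above the array median. The log2 change was 4.58 ± 0.343, with 3.79 between the A and 5.38 between the B arrays, and 3.48 with 16 added to each signal, which damps changes of dim probe sets (CP1 had 4.14). VTC4 (AT3G02870), an inositol and L-galactose 1-phosphate phosphatase on the route to ascorbate, read 106 and 108 in water and 537 and 422 in gibberellin (log2 change 2.15 ± 0.260, adjusted p = 0.00171 with limma). Its groups were tight and far apart. YLS5 (AT2G38860), of the DJ-1 family, read 64.1 and 47.6 in water and 318 and 272 in gibberellin. SAG29 (AT5G13170), the sugar exporter SWEET15, read 31.4 and 16.9 in water and 121 and 92.3 in gibberellin. It was the 1 of 8 tested SWEET genes that passed, where 1.17% of all 8854 did. The brightest SWEET gene, SWEET1, had a log2 change of 0.08 ± 0.224.

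Of the next genes 4 passed the test, 2 higher and 2 lower; they were set side by side after their values had been seen and form no list. UGT74B1 (AT1G24100), the glucosyltransferase that completes the core of glucosinolates, the sulphur-containing defence compounds of the cabbage family, read 41.1 and 51.0 in water and 245 and 140 in gibberellin (log2 change 2.02 ± 0.309). AOP1 (AT4G03070) and AOP3 (AT4G03050) belong to 1 family of 2-oxoglutarate-dependent dioxygenases, in which AOP3 modifies glucosinolate side chains. AOP1 read 12.6 and 30.4 in water and 131 and 148 in gibberellin, and rose by 2.83 ± 0.421 on the log2 scale (adjusted p = 0.00684 with limma). AOP3 read 504 and 474 in water and 130 and 135 in gibberellin, and fell. The 2 genes have no protein-coding gene between them in the RefSeq order (assembly TAIR10.1) and changed in opposite directions. Other kinds of gene were left out of that order. AT4G03030, with 1 protein-coding gene between it and AOP3, fell from 339 and 358 to 161 and 192. The transporter GTR2, which moves glucosinolates between cells, read 215 and 163 in water and 585 and 374 in gibberellin and did not pass (log2 change 1.32 ± 0.342, adjusted p = 0.1). The beta-glucosidase PYK10, an abundant root enzyme, read 71.7 and 94.7 in water and 549 and 312 in gibberellin (adjusted p = 0.141). BGLU19 went the other way, from 494 and 381 to 33.2 and 118 (adjusted p = 0.119 with limma). Of 11 tested beta-glucosidases 0 passed, where 1.17% of all 8854 did.

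Further rises with a symbol were spread over functions. COR47 (AT1G20440), a cold-induced dehydrin, read 32.6 and 29.5 in water and 205 and 129 in gibberellin, and AT2G46140, annotated as LEA27, read 174 and 169 in water and 367 and 353 in gibberellin (log2 change 1.07 ± 0.164, adjusted p = 0.0081 with limma). Both belong to protein groups that accumulate in dry or cold-stressed tissue. The abundant LEA18 did not pass and read 3288 and 4699 in water and 2095 and 4662 in gibberellin. Its water A signal lay near the highest of that array (3787), where a rise could hardly be seen. In the LEA list, which leaves out COR47, 1 of 7 tested genes (AT2G46140) rose and 0 fell, against 0.7% and 0.474% of all 8854. The median log2 change in the list was -0.09. RALFL34 (AT5G67070), a signalling peptide known from lateral root initiation, read 264 and 245 in water and 760 and 486 in gibberellin. Cpn60beta2 (AT3G13470), a subunit of the plastid chaperonin, read 530 and 666 in water and 1138 and 1047 in gibberellin, the smallest rise among the 62 (0.88 ± 0.176). ATLP-1 (AT1G18250), of the thaumatin-like proteins, rose by 2.35 ± 0.466 and SGP2 (AT3G21700), a small GTP-binding protein, by 1.77 ± 0.353. BPEp (AT1G59640), a bHLH factor known for limiting petal size, was dim: 10.5 and 1.79 in water, 34.4 and 52.7 in gibberellin. Its change was 3.30 on the log2 scale but 1.44 on that of log2(signal + 16), and it was 1.72 between the A and 4.88 between the B arrays, the widest gap of the 104.

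Among genes of gibberellin perception and signalling, 7 were tested, 0 rose and 2 fell, where 0.7% of all 8854 rose and 0.474% fell. The median log2 change of the 7 was -0.61. These 7 are the only ones of 19 listed genes with a probe set of their own, and no DELLA gene is among them. GID1A (AT3G05120), one of the 3 receptors, read 391 and 348 in water and 162 and 134 in gibberellin, so the higher gibberellin array lay under the lower water array by more than 2-fold. SLY1 (AT4G24210) read 270 and 261 in water and 133 and 134 in gibberellin (log2 change -0.99 ± 0.199, adjusted p = 0.033 with limma). With 1 array left out it kept its call in 6 of 12 fits, and GID1A in 9. The other receptors were dimmer, GID1C at 51.8 and 30.7 in water and 27.4 and 24.5 in gibberellin and GID1B at 18.8 and 27.5 in water and 15.5 and 14.4 in gibberellin, with changes of -0.62 ± 0.369 and -0.61 ± 0.686 that did not pass. SPY, an O-fucosyltransferase that modifies DELLA proteins, read 562 and 595 in water and 381 and 402 in gibberellin (-0.56 ± 0.180, adjusted p = 0.194), and its relative SEC had a change of -0.38 ± 0.185. The 1 gene with a positive change was SLY2, a close relative of SLY1, at 0.27 ± 0.490. In 6 of the 7 the arrays of the 2 treatments did not overlap, all 6 being lower in gibberellin. Of the 8854 genes 22.3% were lower and 18.9% higher without overlap. Genes of gibberellin synthesis and breakdown were not analysed here.

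All 3 of the tested genes listed under abscisic acid metabolism and response fell, against 0.474% of all 8854. They are 3 of the 25 in the list, the only ones with a probe set of their own. The lists were chosen with earlier results of these data known, so this count is a description and no support of its own. XERICO (AT2G04240), a RING-type gene that raises abscisic acid when overexpressed, read 1156 and 1181 in water and 236 and 325 in gibberellin. AT3G25260, annotated as the transporter NPF4.1, which imports abscisic acid and gibberellin when expressed in yeast, read 228 and 183 in water and 30.1 and 22.6 in gibberellin, a log2 change of -2.97 ± 0.310 (adjusted p = 0.000583 with limma) that was -2.92 between the A and -3.02 between the B arrays. HIS1-3 (AT2G18050), a linker histone induced by drought and abscisic acid, read 298 and 332 in water and 65.3 and 111 in gibberellin. In all 3 the lowest water array was more than 2-fold above the highest gibberellin array. AT3G25260 was also the 1 of 7 tested NPF genes that passed, where 1.17% of all 8854 did. The seed regulators SPT and AGL67, a light- and temperature-responsive germination factor and a MADS-box gene, did not pass: SPT read 120 and 104 in water and 242 and 203 in gibberellin (adjusted p = 0.0883), and AGL67 read 131 and 111 in water and 43.7 and 107 in gibberellin (adjusted p = 0.578). Neither overlapped between treatments.

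**Figure D2:**
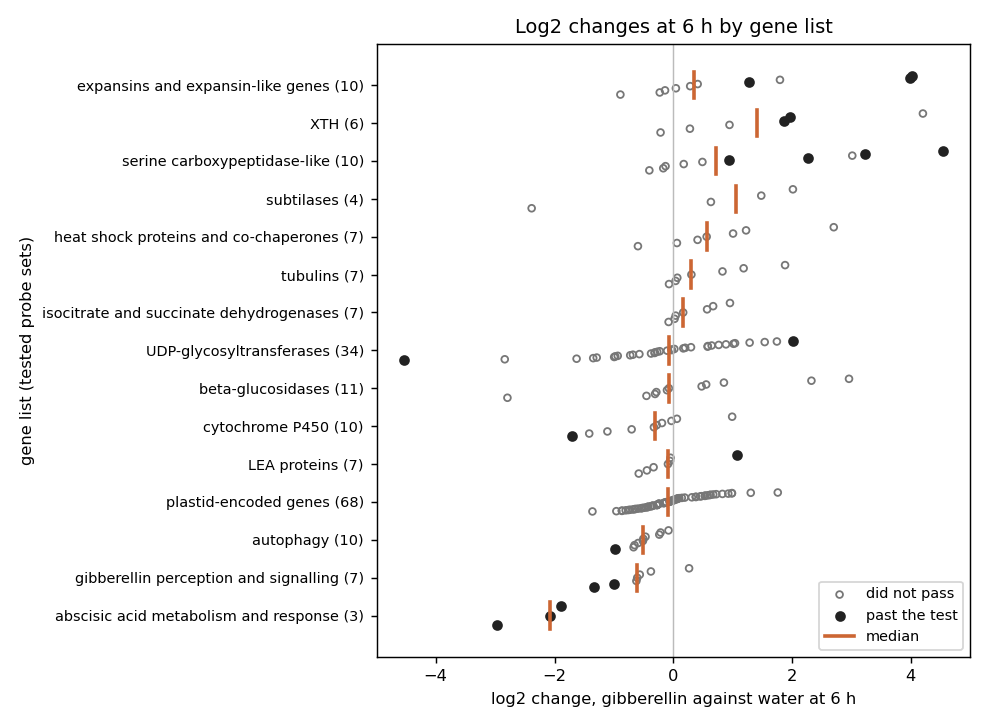
Log2 change at 6 h (horizontal axis) of the tested probe sets in 15 gene lists, with the number tested in brackets. Filled points passed the test, open points did not, and the orange bar is the list's median. The medians of the abscisic acid list (-2.08) and the gibberellin perception list (-0.61) lie left of 0 and that of XTH (1.41) right of it. The XTH median counts XTH18, a dim gene that did not pass. The lists were chosen with earlier results of these data known.

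Several further falls touched metabolism, autophagy and cell structure. APG8A (AT4G21980), one of the ATG8 proteins that coat autophagosomes, read 261 and 244 in water and 124 and 133 in gibberellin (log2 change -0.98 ± 0.182, adjusted p = 0.022 with limma). Of 10 tested autophagy genes 1 fell and 0 rose, where 0.474% of all 8854 fell and 0.7% rose. All 10 changes were below 0 and reached from -0.98 to -0.08, with a median of -0.51 against -0.02 for all 8854. The 10 are the only ones of 29 listed genes with a probe set of their own. Apart from ATG3 they belong to the ATG8 family, so the rest of the pathway was hardly covered. ATG8F, the next, read 652 and 866 in water and 415 and 539 in gibberellin (-0.67 ± 0.228, adjusted p = 0.234). PGM (AT1G78050), a phosphoglycerate mutase of glycolysis, read 213 and 224 in water and 118 and 79.7 in gibberellin. 2A6 (AT1G03410) read 250 and 237 in water and 101 and 81.7 in gibberellin, and CYP71B26 (AT3G26290), a cytochrome P450, 115 and 115 in water and 40.1 and 30.9 in gibberellin. Both were clearly apart, and CYP71B26 was the 1 of 10 tested cytochrome P450 genes that passed (1.17% of all 8854 passed). TRM19 (AT3G53540), of a family that binds the microtubule-organising protein TON1, fell from 106 and 132 to 59.6 and 58.5. It was the 1 of 10 tested TRM genes that passed, and it kept its call in 5 of 11 other settings of the fit. UGT72B3 (AT1G01420), a glycosyltransferase, was dim: 27.2 and 19.2 in water and 0.89 and 1.08 in gibberellin, with a change of -1.20 on the scale of log2(signal + 16). Of 34 tested UDP-glycosyltransferases it was the 1 that fell, UGT74B1 the 1 that rose, and the median was -0.06.

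Other genes that passed carry only a locus number as symbol but have a synonym in the RefSeq table; 3 of these were picked out after their values had been seen. AT4G33150, the LKR/SDH enzyme that starts lysine breakdown, read 70.3 and 74.6 in water and 35.7 and 24.2 in gibberellin (-1.30 ± 0.281, adjusted p = 0.0455 with limma). It kept its call in 1 of the 12 fits made without 1 array. AT5G61590, the wax synthesis repressor DEWAX, read 546 and 449 in water and 255 and 173 in gibberellin (-1.24 ± 0.224). AT2G35310, REM23 of the reproductive meristem family, read 214 and 250 in water and 112 and 130 in gibberellin (-0.94 ± 0.203). Under 11 other settings of the fit AT2G35310 kept its call in 6, AT4G33150 in 7 and AT5G61590 in 10.

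Among genes known here only by locus, the largest rise was AT3G15720, with 12.7 and 25.1 in water and 415 and 392 in gibberellin (log2 change 4.50 ± 0.619). AT5G55050 read 32.3 and 30.4 in water and 230 and 251 in gibberellin, AT2G22420 read 34.1 and 41.8 in water and 290 and 255 in gibberellin, and AT5G45670 read 25.4 and 17.6 in water and 232 and 125 in gibberellin. In all 4 the nearest arrays of the treatments were more than 4-fold apart. AT5G11420 was among the brightest rises, from 808 and 809 to 2138 and 2789, followed by AT1G01300, from 772 and 429 to 1721 and 1591, and AT3G48140, from 794 and 735 to 1694 and 1542. Of the falls, AT2G28400 read 231 and 246 in water and 41.6 and 34.6 in gibberellin (log2 change -2.65 ± 0.220, adjusted p = 8.38e-05 with limma). AT1G17830 fell from 72.2 and 45.9 to 13.0 and 3.85, under the filter in both gibberellin arrays. The brightest falls were AT1G13930, from 1382 and 1616 to 577 and 609, and AT3G02910, from 1475 and 1340 to 618 and 562. Next to scpl29 in the RefSeq order of protein-coding genes, AT4G30800 rose from 203 and 126 to 474 and 382. AT4G36860, with 1 such gene between it and CP1, rose from 275 and 278 to 593 and 714. The share of tested genes that passed ran from 0.866% on chromosome 5 to 1.75% on chromosome 4.

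Several lists held large changes with 0 members past the test. As 1.17% of all 8854 genes passed, 0 is near that share in lists of this size. Of 7 tested heat shock proteins and co-chaperones, Hsp70-2 read 67.8 and 43.7 in water and 433 and 291 in gibberellin (log2 change 2.70 ± 0.812, adjusted p = 0.161), and Fes1B read 124 and 123 in water and 296 and 282 in gibberellin (1.23 ± 0.275, adjusted p = 0.0556). Hop1, which links Hsp70 to Hsp90, had a change of 1.01 ± 0.277, and the median was 0.56. Of 7 tested tubulins, the subunits of microtubules, TUB5 read 19.4 and 25.8 in water and 108 and 63.2 in gibberellin (1.88 ± 0.527, adjusted p = 0.13), while the abundant TUA6 read 1623 and 1611 in water and 1806 and 1593 in gibberellin. The mitochondrial IDH-VI, an isocitrate dehydrogenase subunit of the citrate cycle, read 49.99 and 50.5 in water and 97.7 and 97.3 in gibberellin (adjusted p = 0.0958). Its 2 arrays differed by under 2% in each group, and it did not pass. The 68 tested plastid-encoded genes had a median of -0.09, near that of all 8854 (-0.02), and 0 passed. Single changes among them ran from -1.36 to 1.76. Medians were -0.06 for 7 tested photosynthesis genes and 0.04 for 12 ubiquitin-specific proteases, with 0 past the test in both lists.

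Set letter against letter, the differences between treatments had the same sign in A and B for 5483 of the 8854 genes (61.9%), with a Pearson correlation across genes of 0.257. Genes are not independent replicates, and the correlation depended on brightness: it was 0.121 for the 2859 genes with a mean signal under 32, 0.486 from 32 to 128, 0.718 from 128 to 512 and 0.799 from 512 to 2048. Above 2048, where 87 genes lay and the A arrays came near their ceiling, it was 0.349, the median difference was -0.14 in A and 0.11 in B, and 0 genes passed the test. The spread of the differences was wider in B (SD 0.960) than in A (SD 0.752), and 1433 genes (16.2%) differed at least 2-fold in B against 946 (10.7%) in A. At least 2-fold in both letters were 198 genes higher in gibberellin (2.24%) and 138 lower (1.56%), against 108 genes (1.22%) that were at least 2-fold in opposite directions. Of those 108, 106 had a mean signal under 32. Since the A arrays share the low ceiling and the B arrays the high one, these are also the values within each kind of array. The call rests on the mean of the A and B differences, which favours the same sign in both letters among genes that passed. All 104 genes that passed had the same sign in both letters, and 83 of them changed at least 2-fold in both. Conversely, 253 of the 336 genes that were at least 2-fold in both letters in 1 direction did not pass, and 180 of the 253 had a dimmer group mean under 16. Among the 104 the gaps between the letters were largest for BPEp (3.16), ASPGB1 and AT1G48870 (3.52 in A and 1.94 in B), while over all 8854 the largest gap was 7.34. They were small for AT3G02910 (-1.25 in both) and AT3G60070 (1.94 and 1.95), which were picked out after their values had been seen.

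**Figure D3:**
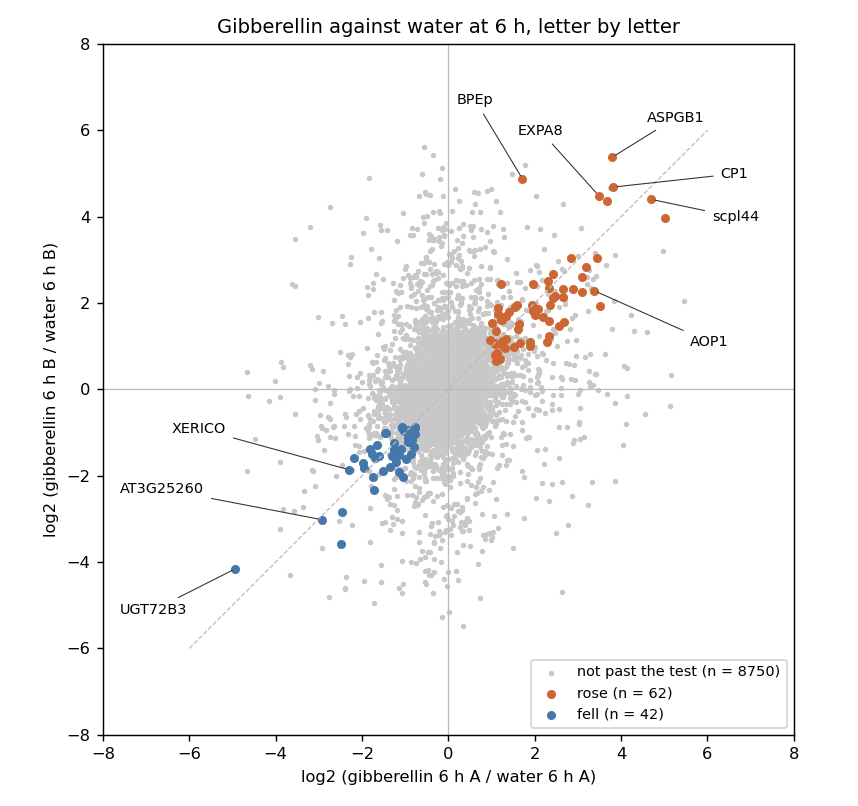
Log2 ratio of gibberellin to water at 6 h between the B arrays (vertical axis) against that between the A arrays (horizontal axis), 1 point per tested probe set that names 1 gene. The 62 genes that rose (orange) and the 42 that fell (blue) lie in the 2 quadrants of equal sign, and the grey points of the other 8750 scatter along both axes. The same arrays gave the changes by which the coloured genes were called, which favours equal signs.

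The 104 genes were also followed through the arrays at 3 h and 9 h, which share no array with the 6 h comparison but share its estimate of the spread. All 62 rises and all 42 falls had the same sign at 3 h and at 9 h. Of the 15 genes that passed at 3 h, 14 (93.3%) also passed at 6 h. Of the 104, 91 (87.5%) also passed at 9 h, and these 91 make up 15.2% of the 598 genes that passed at 9 h. The median log2 change of the 62 was 1.0 at 3 h, 1.88 at 6 h and 1.91 at 9 h, and that of the 42 was -0.65, -1.38 and -1.38. The 6 h values chose these genes, so the medians at 3 h and 9 h are open to that choice. It also favours a larger effect at 6 h than at the other times in the counts that follow. The effect at 6 h was larger than at 3 h for 60 of the 62 and for all 42, and that at 9 h was larger than at 6 h for 37 of the 62 and 21 of the 42. Tested directly with limma, the 6 h effect differed from the 3 h effect for 0 of 15766 probe sets (lowest adjusted p = 0.136, with 373 or 2.37% at an unadjusted p under 0.05), and the 9 h effect from the 6 h effect for 0 (lowest adjusted p = 0.909, with 454 or 2.88%). The median standard error of the first difference was 0.449. A change in effect between times was thus not called for any gene.

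The levels of single genes over the 3 times follow as a description. CP1 in gibberellin read 2432 and 1450 at 3 h, 2597 and 4162 at 6 h and 3667 and 3743 at 9 h, while in water it went from 223 and 174 through 183 and 162 to 118 and 105. EXPA8 in gibberellin read 894 and 707 at 3 h, 1091 and 1149 at 6 h and 644 and 796 at 9 h. Its 3 h and 9 h arrays overlapped. VTC4 read 321 and 182 in gibberellin at 3 h, 537 and 422 at 6 h and 577 and 576 at 9 h, with its changes at 0.82, 2.15 and 2.52 on the log2 scale. XERICO in gibberellin went from 468 and 562 at 3 h to 236 and 325 at 6 h and 138 and 181 at 9 h, and AOP3 from 219 and 192 to 130 and 135 and then 60.3 and 89.5. Their water arrays stayed between 1014 and 1483 for XERICO and between 448 and 538 for AOP3. AT3G25260 was already at 35.8 and 61.2 in gibberellin at 3 h, against 210 and 179 in water, and at 27.1 and 43.5 at 9 h. The carboxypeptidase-like scpl20 had a log2 change of 0.95 at 3 h, 3.23 at 6 h and 4.03 at 9 h, and COR47 one of 0.53, 2.39 and 2.95. Of the 104, 13 passed at 6 h alone, 8 of them falls, among them UGT72B3 (-1.0 at 3 h, -4.54 at 6 h and -0.86 at 9 h), BPEp (1.85, 3.30 and 0.97) and AT1G48870 (0.72, 2.73 and 0.91). These 3 genes had a dimmer group mean under 16.

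**Figure D4:**
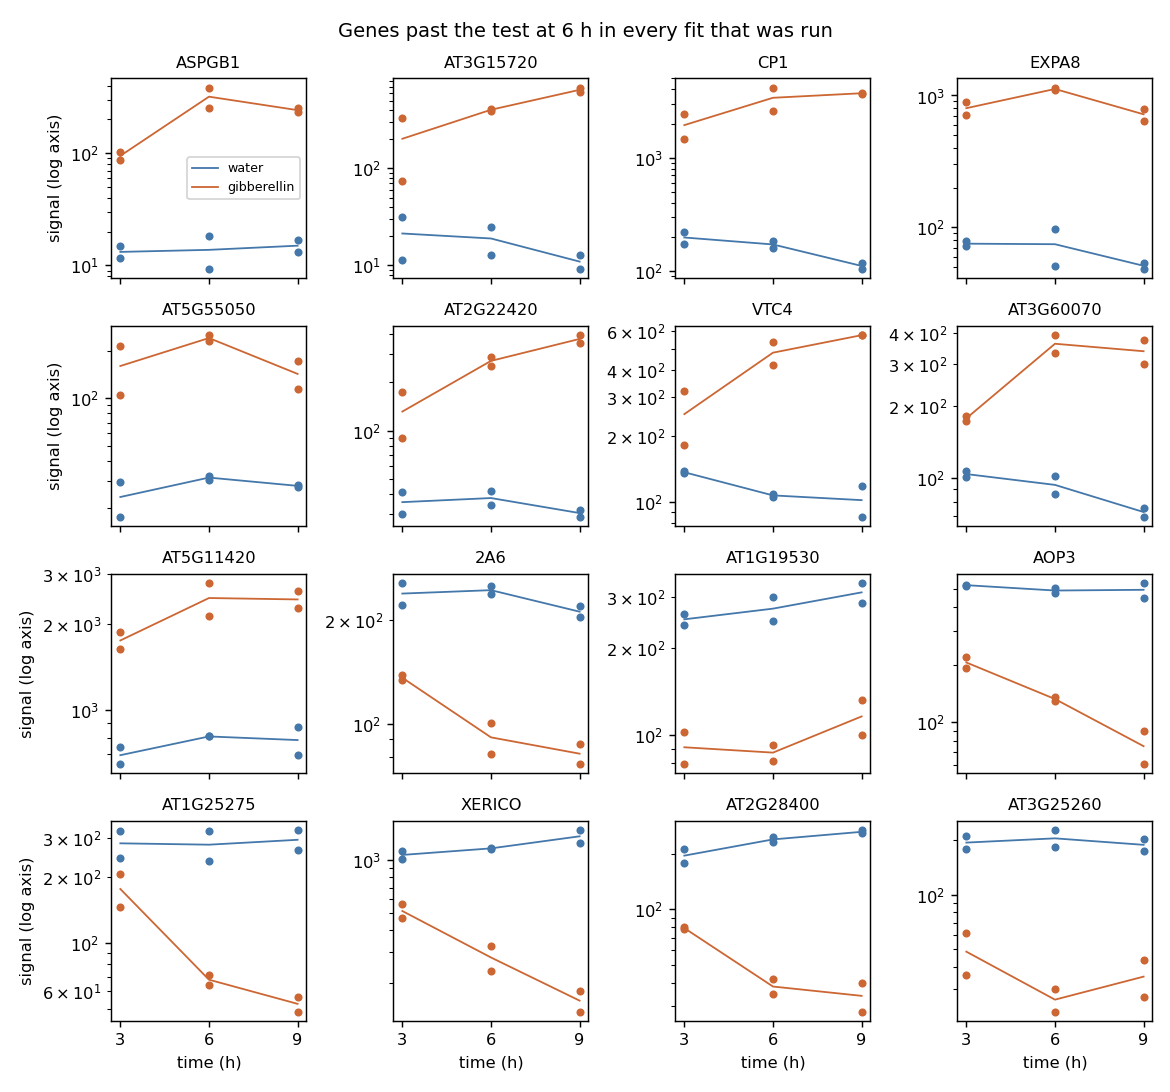
Signals (vertical log axis, a scale of its own in each panel) in water (blue) and gibberellin (orange) at 3, 6 and 9 h of the 16 genes that passed at 6 h in every fit that was run. Points are single arrays and lines join the means of 2; in each panel the 2 colours are apart at 6 h, with gibberellin above water in 9 panels and below it in 7.

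Of the 104 genes, 16 kept their call without each of the 12 arrays in turn and in all 11 other settings. The 9 that rose were ASPGB1, AT3G15720, CP1, EXPA8, AT5G55050, AT2G22420, VTC4, AT3G60070 and AT5G11420. The 7 that fell were AT3G25260, AT2G28400, XERICO, AT1G25275, AOP3, AT1G19530 and 2A6. All 16 also passed at 9 h and 10 of them at 3 h, and in all 16 the water mean at 6 h lay within 2-fold of that at 3 h and of that at 9 h. The water levels of AT1G25275 were 236 and 324 at 6 h against 71.7 and 64.1 in gibberellin, and those of AT1G19530 were 298 and 247 against 92.7 and 81.7. Both EXPA9 and GID1A are outside the 16, as are both XTH genes and all 4 serine carboxypeptidase-like genes. At the threshold, AT5G11000 (adjusted p = 0.0488 with limma), AT5G47610 (0.0487) and AT4G39840 (0.0458) lay just inside, with log2 changes of 1.57, -1.33 and 1.51. AT5G20400, AT4G33040 and AT3G60450 lay just outside (adjusted p = 0.0501 each), with changes of 1.17, 1.17 and -0.81.

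**Figure D5:**
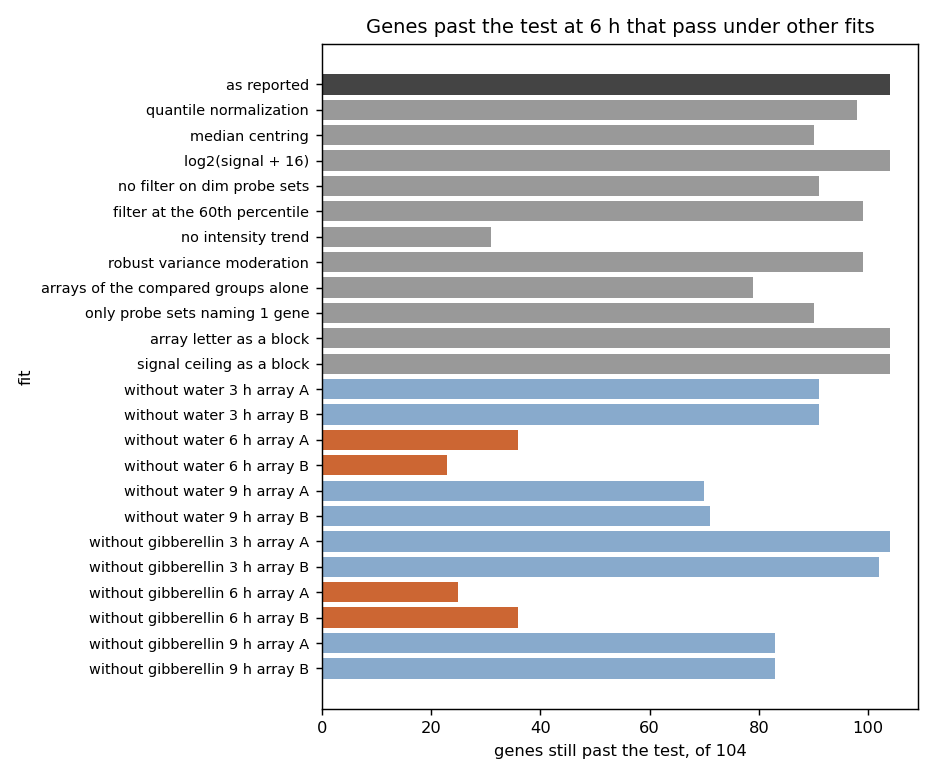
Number of the 104 genes (horizontal axis, from 0) that passed the test at 6 h under each other fit (rows). Grey bars are other settings, orange bars leave out 1 of the 4 arrays at 6 h and blue bars 1 of the other 8; the orange bars reach 23 to 36 and the fit with no intensity trend 31.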

How the data were processed

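The authors deposited 1 table of intensity values on a linear scale, which the submitters' processing notes credit to MAS5 (no version is given in the sources used here). The trimmed mean of every deposited array was 100, so intensities had been scaled to a common mean, which removes any change in total RNA per seed. Signals were taken to log2 with no further normalization. Gene names came from the platform annotation and RefSeq (TAIR10.1): 13513 name 1 gene, of which 13436 matched, and 503 name several and were not named. Probe sets with at least 2 of 12 arrays above the 40th percentile were tested. All 12 arrays entered 1 model of 6 group means, fitted with limma 3.58.1 in R 4.3.3 (intensity trend, 6 residual and 5.53 prior degrees of freedom), with two-sided tests and Benjamini-Hochberg adjustment over 15766 probe sets. When tested on simulated data (200 of 15766 probe sets changed), this comparison recovered 6% of log2 changes of 1 (0 false calls), 68.5% of changes of 2 (7) and 77.5% of changes of 3 (7).

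The comparison, the genes and the lists were chosen with earlier results of these data known, and the lists were redrawn by locus and symbol once the annotation had been seen. Named genes are, among genes past the test, the 12 largest rises and falls with a dimmer group mean of at least 16, up to 3 more each under it, the 5 brightest each way, up to 4 passing members of a list (or 2 as values), the 3 widest letter gaps and the 3 nearest the threshold on either side. Those with a symbol, and others where stated, were added after their values had been seen. Alternatives were another normalization, offset, filter or variance model, letter or signal ceiling as a block, fewer groups or probe sets, and leaving out each array. Promoter and protein sequences were not analysed here.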

Additional observations from a re-analysis of the deposited data

How the results depend on the processing

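The count of 233 probe sets past the test at 6 h moved by more than 1.5 times under 4 settings besides those that leave out an array: 81 with no intensity trend, 90 among probe sets naming 1 gene only (fewer were tested), 505 when blocked by signal ceiling and 857 with the array letter as a replicate block. With quantile normalization, median centring, log2(signal + 16), other filters, robust variances or the 4 arrays alone it lay between 212 and 274. Leaving out 1 array gave 67 to 300: of the arrays at 6 h, water A gave 120 when left out, water B 67, gibberellin A 80 and gibberellin B 98. The test of the 6 h effect against the 3 h effect gave 0 calls except 1 with the replicate block and 2 without gibberellin 3 h A (0 to 2 over all arrays left out), and that of 9 h against 6 h gave 0 in every setting. The cause of these shifts was not tested. No named gene that passed the test changed sign in another fit. Changes of sign in named genes that did not pass were not counted. Deviations from the group means correlated between same-lettered arrays at 0.077 to 0.275 over 15 pairs of groups (water against gibberellin 0.275 at 3 h, 0.169 at 6 h and 0.103 at 9 h). Nothing in the labels ties the letters together and 1 of the 15 values, 0.077 between water at 9 h and gibberellin at 6 h, was under 0.1, so the letters were not treated as pairs. With the replicate block 409 probe sets naming 1 gene passed, all 104 among them. Genes given above as not past the test that passed with it were SPY (adjusted p = 0.0383), SPT (0.0028), scpl48 (0.0105), SBT1.3 (0.00101), GTR2 (0.000764), PYK10 (0.00327), BGLU19 (0.0028), ATG8F (0.0196), Hsp70-2 (0.00234), Fes1B (0.00198), Hop1 (0.00674), TUB5 (0.0114), IDH-VI (0.0311), AT5G20400, AT4G33040 and AT3G60450. With it 4 of 7 heat shock proteins and co-chaperones, 2 of 7 tubulins, 2 of 5 GH9 endoglucanases and 1 of 4 subtilases rose, and 3 of 11 beta-glucosidases and 4 of 68 plastid-encoded genes passed. Quantile normalization kept 98 of the 104, median centring 90, the 4 arrays alone 79 and no intensity trend 31. Low signal limits the comparison: under a mean signal of 32, 4 of 2859 genes passed.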
